A study of Homo sapiens with 11 samples.

Results

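The effect of a combination of 4 drugs on gene expression was compared between 24 h and 2 h of treatment in kidney cancer cells, as the ODC effect at 24 h minus the ODC effect at 2 h. All 11 libraries of the series entered the comparison. Of 26485 gene symbols counted, 13333 could be tested. The cells were Caki-1-SR clone 1, a single clone of a sunitinib-resistant subline of Caki-1, a human clear cell renal cell carcinoma (ccRCC) line from a skin metastasis. All groups shared 1 µM sunitinib, an inhibitor of receptor tyrosine kinases in which the subline is maintained. The optimized drug combination ODC REMP, here ODC, was given at fixed doses. It contained Rapta-C at 2 µM, which is an organometallic ruthenium complex, and parthenolide at 5 µM, a lactone from feverfew with anti-inflammatory action. Its other components were erlotinib at 1 µM, which blocks EGFR, and the diabetes drug metformin at 1 µM. The control (CTRL) received none of the 4 drugs, and is called both untreated and sham-treated by the study. There were 3 CTRL and 3 ODC libraries at 24 h, and 2 CTRL and 3 ODC libraries at 2 h.

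The counts of each time came in a table of their own, made in a different month, so treatment time and table cannot be told apart. Each effect was therefore taken within its own table, and a difference between the effects is not touched by a shift that CTRL and ODC share. Nothing states that the libraries of a group came from separate experiments, so the p-values measure the spread between these libraries only. A gene was to be called late if it passed the test of the difference and the test at 24 h with the larger effect there, early if the same held for 2 h, and reversing if both effects passed with opposite signs.

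Cells answer electrophilic or oxidising compounds through NRF2, a transcription factor that is held back by KEAP1, whose reactive cysteines such compounds modify. Freed NRF2 binds antioxidant response elements and raises enzymes that reduce quinones, supply NADPH and glutathione, store iron and break down heme. EGFR signals through the kinase ERK, whose output is read from fast-turnover transcripts such as EGR1, DUSP6 and SPRY4. The transcripts of ERK and of many stress pathways change within minutes to hours, whereas long-lived products accumulate over a day.

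The libraries held 17785229 to 20882856 counts at 24 h and 25782895 to 31118349 at 2 h. Levels are given as CPM, that is counts scaled to a common library size with TMM factors. The floor was set at 3 counts, equal to 0.0943 to 0.114 CPM in the 2 h libraries and between 0.146 and 0.168 CPM in those of 24 h, covering counting error only. Replicates differed by more than sampling noise, with a chi-square of 19.0 to 59.5 per gene. The common biological coefficient of variation was 0.155. The renal transcription factor PAX8 was measured at 444 to 888 CPM in every library, which fits the labelled tissue, while CA9, a marker of ccRCC, had at most 1 count in any library and PAX2 at most 4.

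Some of the 2 h libraries stood apart, in ways that bear on every result below. The library labelled CTRL 2 h replicate 1 held transcripts that were near the floor elsewhere. Its counts were 1081 for COL3A1 and 971 for COL1A2, fibroblast collagens with at most 6 and 11 counts in any other library. Over the 9 fibroblast markers, the summed level was 322 CPM there and 137 to 166 CPM in the other 2 h libraries, with all 9 markers above the floor in that library, 3 to 6 in the other 2 h libraries and 2 or 3 in the 24 h libraries. The epithelial keratin KRT19 had 48 counts in that library and at most 3 in any other, and EPCAM 100 against 5 to 27. Small structural RNAs such as RMRP and RN7SK summed to 107.6 CPM in it and to 15.3 to 24.0 CPM in the other 2 h libraries. Their part in the results was not tested beyond leaving the library out.

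Among the 2 h libraries the fast-responding genes also went against the labels. EGR1 stood at 40.1 and 2.00 CPM in the libraries labelled CTRL, and at 3.87, 157.5 and 6.52 CPM in those labelled ODC. DUSP6, a phosphatase that switches ERK off, stood at 17.8 and 1.37 CPM in CTRL and at 2.36, 15.7 and 2.38 CPM in ODC. CTRL replicate 1 was thus together with ODC replicate 2 at the high end, and CTRL replicate 2 together with ODC replicates 1 and 3 at the low end. The feedback inhibitor SPRY4 gave the same split, with 40.0 and 4.77 CPM in CTRL and 5.41, 26.0 and 7.06 CPM in ODC. HMOX1, the heme oxygenase that NRF2 induces, was split the other way round, with 21.5 and 228 CPM in CTRL and 326, 17.8 and 102 CPM in ODC. The cystine transporter gene SLC7A11 stood at 38.7 and 126 CPM in CTRL and at 100.04, 62.7 and 86.1 CPM in ODC, with CTRL replicate 1 lowest and CTRL replicate 2 highest.

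The gene lists moved in the same way. The mean log2 level of the 25 ERK output genes lay 0.58 above and 0.42 below (-0.42) the mean of the 2 h libraries in CTRL replicates 1 and 2. It lay at -0.46, 0.40 and -0.10 in ODC replicates 1, 2 and 3. For the 47 NRF2 targets these deviations were -0.27 and 0.14 in CTRL, and 0.23, -0.22 and 0.12 in ODC. Of 30 response genes listed by name, the labelled groups did not overlap in 2 at 2 h and in 17 at 24 h. These 30 were chosen with earlier results of these data known, so both counts are descriptions only. Over all tested genes the groups did not overlap in 15.2% at 2 h and in 17.7% at 24 h. Groups of 2 and 3 libraries part by chance more often than groups of 3 and 3, so the shares of the times are not on the same scale. Over the whole profile, CTRL replicate 2 lay nearest to ODC replicate 2 and ODC replicate 1, so the profile as a whole did not give the split that EGR1 gave. CTRL replicate 1 also lay nearest to ODC replicate 2 (distance 0.399), its partner for EGR1, and farthest from CTRL replicate 2 (0.457). The samples were kept under their labels, and the calls of the difference, the number of calls at each time and the counts of most lists described below at length are also given without both libraries of replicate 2 at 2 h, a setting chosen after their values were seen. CTRL replicate 1, which stood apart as described above, is then the only CTRL library at 2 h. Counts and calls in that setting are therefore descriptions and no check of the others.

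**Figure D1:**
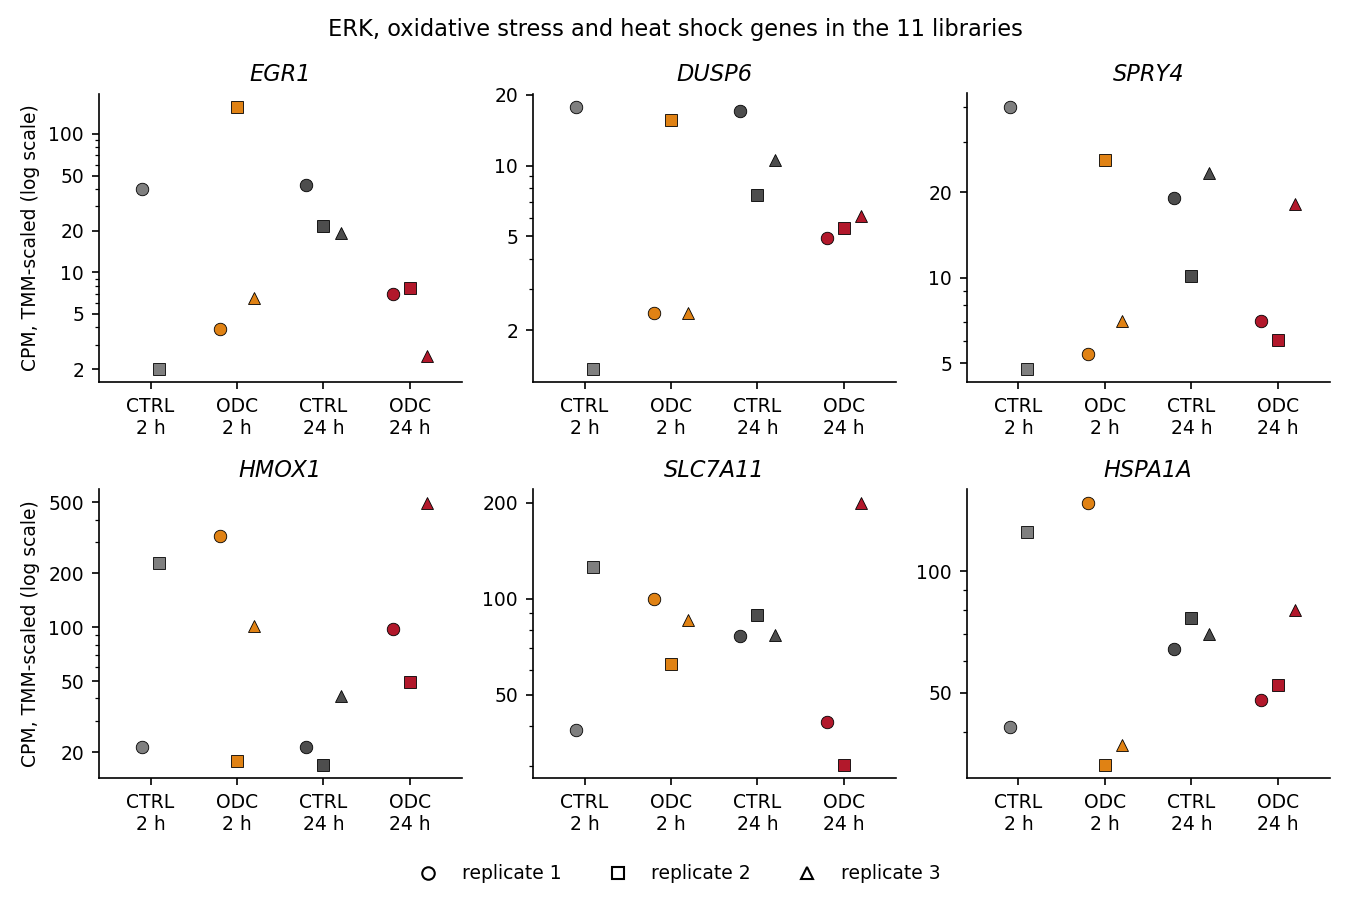
Level of 6 response genes in each library, in TMM-scaled CPM on a log axis, with the groups on the horizontal axis and the replicate number as the marker shape. At 2 h the CTRL circle (replicate 1) and the ODC square (replicate 2) lie together for EGR1, DUSP6, SPRY4 and HMOX1, away from the other 3 libraries.

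At 24 h the ODC replicate 3 differed from the other ODC libraries in the same genes. HMOX1 stood at 98.3, 49.5 and 497 CPM in the ODC libraries and at 21.3, 16.9 and 41.2 CPM in CTRL. SLC7A11 stood at 41.1, 30.1 and 200.2 CPM in ODC and at 76.6, 89.1 and 77.2 CPM in CTRL, so that ODC replicates 1 and 2 lay below all CTRL libraries and replicate 3 above them.

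Set against the effect at 2 h, the effect at 24 h was larger in 2 genes, FTL and NQO1, which are 0.0150% of the 13333 genes tested (adjusted p under 0.05). Both were late and higher in ODC, and both differences were over 2-fold. No gene was called late and lower in edgeR's quasi-likelihood test. The classes early, reversing and shared by both times each need a call at 2 h. As 0 genes were called at 2 h, these classes were empty by definition, and their absence says nothing about early responses. At an unadjusted p under 0.05, 791 genes (5.93%) passed for the difference, with a positive value in 422 (3.17%) and a negative one in 369 (2.77%). That is little above the share of 0.05 that such a threshold passes where no gene differs. edgeR's likelihood ratio test called 37 genes, with 29 positive and 8 negative differences, and DESeq2 called 38, with 27 positive and 11 negative.

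FTL encodes the light chain of ferritin, the protein shell that stores iron, at positions 48965309 to 48966879 of chromosome 19 (hg38). At 24 h it stood at 279, 269 and 331 CPM in CTRL and at 1033, 1299 and 1255 CPM in ODC. At 2 h it stood at 385 and 566 CPM in CTRL and at 562, 470 and 510 CPM in ODC. Every ODC library was far above every CTRL library at 24 h, while the groups overlapped at 2 h. The log2 effect was 2.03 at 24 h (standard error 0.15, adjusted p = 0.000152) and 0.11 at 2 h (95% interval -0.25 to 0.47). The difference was 1.92 (standard error 0.22, adjusted p = 0.0174), that is 2.03 less 0.11 before rounding. These are bulk values, so fewer cells of a type and less RNA per cell cannot be told apart. Processed pseudogenes share sequence with FTL and with FTH1, so their counts are uncertain to the extent that reads were shared.

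NQO1 encodes a quinone reductase and lies on chromosome 16 from 69706996 to 69726668 on the minus strand. It stood at 198, 186 and 224 CPM in CTRL and at 575, 602 and 573 CPM in ODC at 24 h. At 2 h it stood at 414 and 473 CPM in CTRL and at 514, 399 and 515 CPM in ODC. The groups were apart at 24 h and mixed at 2 h, and all 5 libraries at 2 h lay between the CTRL and the ODC libraries at 24 h. The same was true of FTL. The log2 effect was 1.53 at 24 h (standard error 0.12, adjusted p = 0.000152) and 0.10 at 2 h (95% interval -0.17 to 0.38), a difference of 1.42 (standard error 0.17, adjusted p = 0.0174).

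In the 1000 bases before its RefSeq start (position 69726560), NQO1 holds a match to the antioxidant response element searched for, TGACNNNGC on either strand, 447 to 455 bases before the start. It is shown because NRF2 binds elements of this kind and because the effect on NQO1 was late. BLVRB, a heme breakdown gene described below, holds a match on the opposite strand 663 to 671 bases before its start at position 40465745. Both sequences are hg38 on the strand of the gene, which is the minus strand, with the match in capitals, at chr16:69726977-69727045 and chr19:40466378-40466446.

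NQO1: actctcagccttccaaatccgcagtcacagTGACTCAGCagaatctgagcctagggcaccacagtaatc
BLVRB: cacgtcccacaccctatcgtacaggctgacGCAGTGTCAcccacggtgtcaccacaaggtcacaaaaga

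The NQO1 match contains the AP-1 letters TGANTCA as well, the element of FOS and JUN proteins. Of 9825 tested genes with a RefSeq start, 33.6% held at least 1 match to TGACNNNGC in this window, as did 34.1% of 85 genes that rose at 24 h, 31.7% of 41 that fell and 50% of 36 NRF2 targets. The share was 43.3% of 30 integrated stress response genes and 19.2% of 26 p53 targets, lists described below. The NRF2 list was made of known targets, so its share is not independent of that factor. The AP-1 letters were held by 19.3% of all these genes, 25.9% of those that rose and 46.3% of those that fell. FTL, whose window starts from position 48965309, held no match to either set of letters in these 1000 bases.

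The call of the difference depended on which library was left out. Both genes kept it without CTRL replicate 3 or ODC replicate 3 of the 24 h libraries. Both lost it without CTRL replicate 2, ODC replicate 1 or ODC replicate 3 of the 2 h libraries, and without CTRL replicate 1, CTRL replicate 2 or ODC replicate 2 of the 24 h libraries. FTL also lost it without ODC replicate 2 at 2 h, and NQO1 without CTRL replicate 1 at 2 h or ODC replicate 1 at 24 h. With each library left out in turn, the difference stayed between 1.61 and 2.16 for FTL and between 1.31 and 1.51 for NQO1, and the highest adjusted p was 0.11 for either gene. Without both libraries of replicate 2 at 2 h, the difference was 1.54 for FTL and 1.204 for NQO1. The 2 h effects were then 0.49 and 0.32 on the log2 scale. CTRL replicate 1, which stood apart, was the only CTRL library at 2 h in that setting, so these values are descriptions only.

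**Figure D2:**
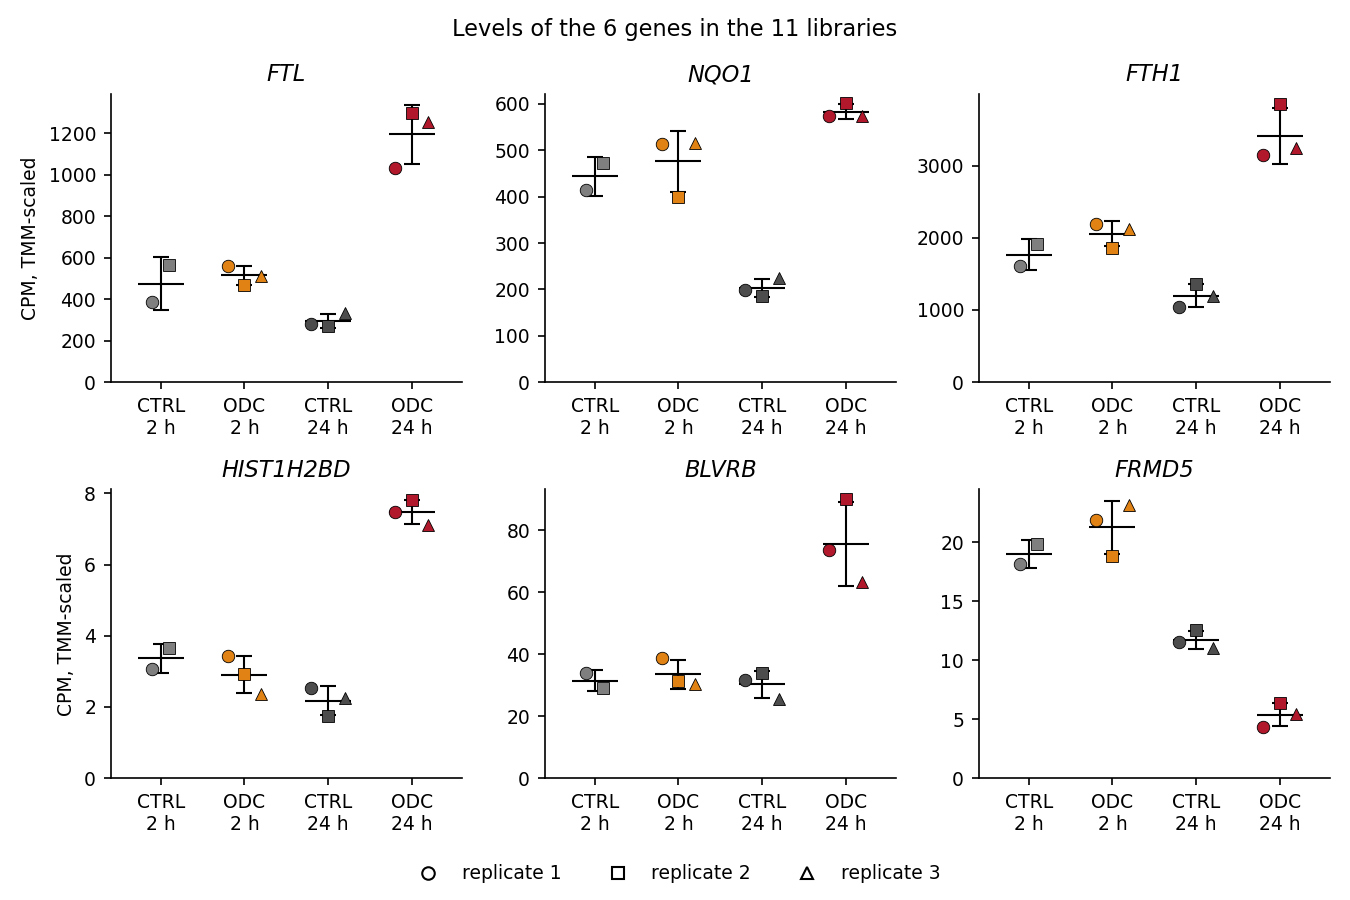
Levels of 6 genes in TMM-scaled CPM on linear axes from 0, with 1 point for each library, marker shapes for replicate numbers, a horizontal bar for the group mean and whiskers for the SD (n = 3, and n = 2 for CTRL at 2 h). FTL and NQO1 lie at 1033 to 1299 CPM and 573 to 602 CPM in ODC at 24 h, above every other library, and at 2 h the CTRL and ODC points overlap.

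The genes next in order of p had the same form but missed the threshold. FTH1, the heavy chain of ferritin on chromosome 11 from 61959718 to 61967634, stood at 1038, 1354 and 1195 CPM in CTRL and at 3140, 3857 and 3241 CPM in ODC at 24 h. At 2 h it stood at 1614 and 1915 CPM in CTRL and 2187, 1858 and 2126 CPM in ODC. Its log2 rise at 24 h was 1.51 (adjusted p = 0.000299 and standard error 0.13) against 0.22 at 2 h, a difference of 1.29 (standard error 0.18, adjusted p = 0.0754). Both chains of ferritin thus had their ODC libraries at 24 h above every other library. With adjacent 24 h libraries taken as pairs, the FTH1 difference passed (adjusted p = 0.019).

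HIST1H2BD, an H2B histone gene on chromosome 6 from 26158122 to 26171349, stood at 2.54, 1.75 and 2.24 CPM in CTRL and 7.47, 7.81 and 7.13 CPM in ODC at 24 h. Its 5 libraries at 2 h lay between 2.38 and 3.65 CPM, with the groups overlapping. It rose by 1.77 at 24 h (standard error 0.20, adjusted p = 0.00504), and the difference was 1.98 (standard error 0.30, adjusted p = 0.083). BLVRB, a reductase that makes bilirubin from biliverdin, went from 31.5, 33.8 and 25.5 CPM to 73.7, 90.003 and 63.2 CPM at 24 h, and lay between 29.2 and 38.8 CPM in the 2 h libraries. It rose by 1.32 at 24 h (adjusted p = 0.00617), with a difference of 1.23 (standard error 0.23, adjusted p = 0.276, and 0.044 with the libraries paired).

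FRMD5 and FAM102B, named after their values were seen, had the smallest p of the difference outside the lists. FRMD5 stood at 11.5, 12.6 and 11.1 CPM in CTRL and 4.38, 6.35 and 5.42 CPM in ODC at 24 h, and at 18.2 to 23.2 CPM in the 2 h libraries. It fell by 1.12 on the log2 scale at 24 h (adjusted p = 0.00911) against 0.16 at 2 h, a difference of -1.28 (adjusted p = 0.207). FAM102B rose by 1.02 at 24 h (adjusted p = 0.00754) against -0.07 at 2 h, and the difference was 1.09 (adjusted p = 0.207).

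At 24 h, 186 genes (1.40%) had an adjusted p under 0.05 in the fit of all libraries, of which 121 (0.908%) rose and 65 (0.488%) fell, and 2011 (15.1%) an unadjusted p under 0.05. Pairing adjacent libraries gave 636 calls, and a fit of the 24 h libraries alone 24. The number was 12 without CTRL replicate 1, 24 without ODC replicate 1, 81 without CTRL replicate 2, 79 without ODC replicate 2 and 402 without ODC replicate 3 of the 24 h libraries. It was 72 without both 2 h libraries of replicate 2, of which 64 were among the 186. In that setting, of the genes named below, FDXR, CDKN1A, BBC3, TGFB2, ID4, CXCL16, CCL20, CSF1, CERS4, SPTLC3, KRT18, KRT7, SCD, STARD4, PFKFB3, ROBO1 and HIST1H2AC lost the call at 24 h, with the same sign and adjusted p from 0.0501 to 0.098.

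For these 186 genes the 2 h libraries were not used in the choice, apart from their share in the common estimate of spread. Of the 121 that rose at 24 h, 95 had a positive effect at 2 h (78.5%), against 48.4% of all tested genes. Their median log2 effect was 1.06 at 24 h and 0.11 at 2 h. Of the 65 that fell, 45 had a negative effect at 2 h (69.2%), against 51.6% of all genes, with medians of -0.93 and -0.040. So the sign at 2 h leaned towards that at 24 h, while the size at 2 h was small. These genes are not independent and all share the same 2 h libraries, CTRL replicate 1 among them. The lean was not examined with libraries left out and is a description only. The 95% interval of the 2 h effect left out the 24 h value in 120 of the 121 and in 64 of the 65, and an unadjusted p under 0.05 for the difference was found in 116 and 63. Both counts hold the 24 h effect that chose these genes for its size and are descriptions only.

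At 2 h the effect of the highest of the 186 genes was 0.78 and that of the lowest -0.74. Of the 186, 5 had an unadjusted p under 0.05 at 2 h, all with the sign seen at 24 h. Among them, ID1, described below, is the only member of the response genes listed by name. Across all 13333 genes the effects at both times had a Pearson correlation of 0.21 and a Spearman correlation of 0.22, as a description over genes, which are not independent and share the spread estimate. The median 95% half-width was 0.33 for an effect at 24 h, 0.37 at 2 h and 0.50 for the difference. A difference of less than about 1.41-fold was thus under the reach of the test for the median gene even before adjustment.

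**Figure D3:**
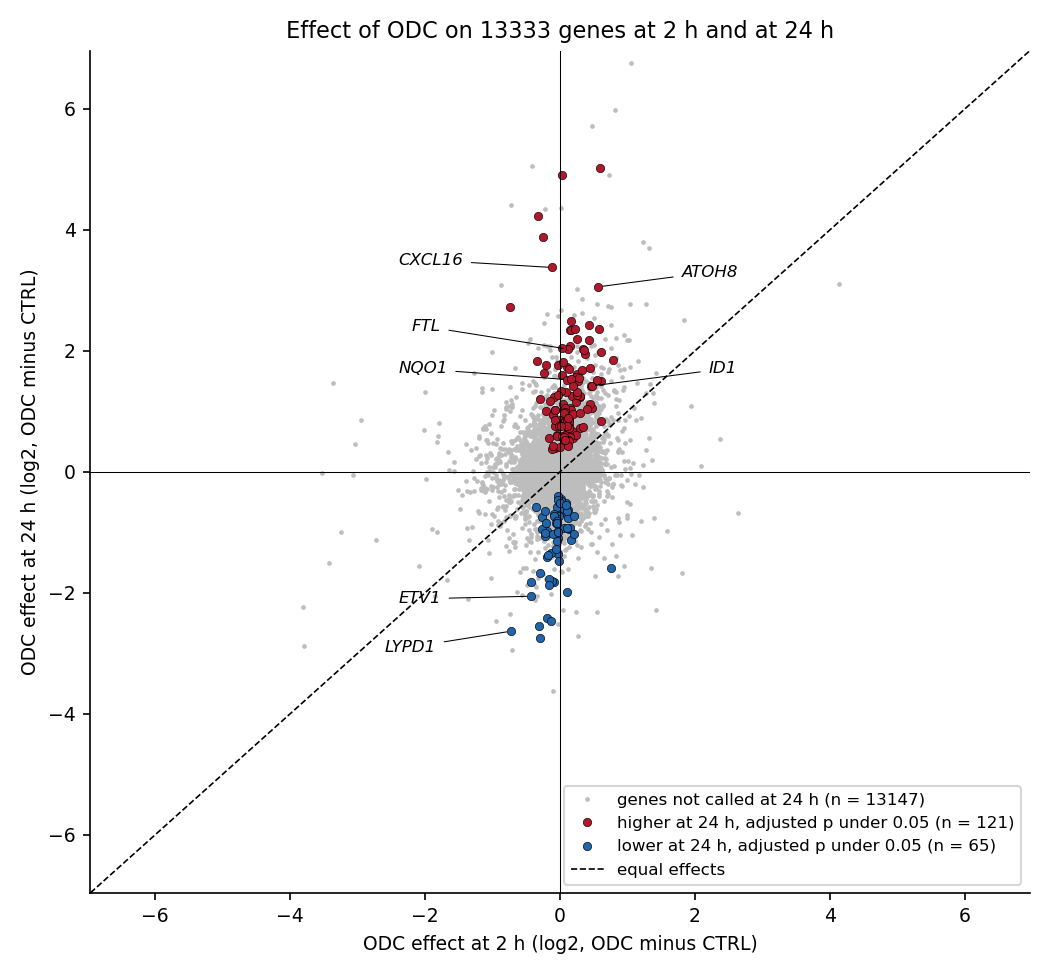
ODC effect at 24 h (vertical) against that at 2 h (horizontal), both log2 of ODC over CTRL, for 13333 genes, with the 121 genes that rose and the 65 that fell at 24 h in colour and a dashed line of equal effects. The coloured genes stretch along the vertical axis, with 2 h effects between -0.74 and 0.78.

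At 2 h no gene had an adjusted p under 0.05 in edgeR's quasi-likelihood test (0%), and the smallest adjusted p was 1. An unadjusted p under 0.05 was found for 216 genes (1.62%), of which 124 (0.930%) were higher and 92 (0.690%) lower in ODC. That is under the share of 0.05 that such a threshold passes where no gene differs. The likelihood ratio test called 0 genes and DESeq2 called 1, RMRP. The 4 genes with the smallest p were the small structural RNAs RPPH1, RMRP, RN7SL2 and RN7SL1, all highest in CTRL replicate 1. RMRP, the RNA of a ribonuclease complex, named after its values were seen, stood at 11.9 and 1.58 CPM in CTRL and at 0.409, 0.708 and 0.306 CPM in ODC at 2 h (log2 effect -3.81). Without CTRL replicate 2 at 2 h, 32 genes passed at 2 h, with 2 higher and 30 lower, among them COL1A2, COL3A1, DCN, LUM, KRT19, EPCAM and RMRP, which are transcripts of the remaining CTRL library described above. Without both libraries of replicate 2, 9 genes passed, COL1A2, COL3A1, COL5A1 and AEBP1 among them, with DUSP6 and PHLDA1 of the ERK output. That pair of libraries was chosen by the levels of such genes, and these calls carry no weight as a test.

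Of the 216 genes, 150 had the same sign at 24 h, 5 were called at 24 h and 62 had an unadjusted p under 0.05 for the difference. For EGR1 the 95% interval of the 2 h effect ran from -1.57 to 4.40, and for HMOX1 from -2.28 to 2.78 on the log2 scale, so changes inside these wide intervals were not detectable under the labels as given.

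Described by their role, the NRF2 targets had the most members that rose at 24 h of the 26 lists. Of 47 tested, 17 rose at 24 h and 0 fell (background 0.908% and 0.488%), and 20 had a positive and 1 a negative difference at an unadjusted p under 0.05 (background 3.17% and 2.77%). The median difference was 0.44, against 0.0025 over all genes, with a median effect of 0.56 at 24 h and 0.091 at 2 h. Across the 24 h libraries the mean log2 level of the list deviated by -0.40, -0.43 and -0.36 in CTRL and by 0.36, 0.35 and 0.48 in ODC, so the groups were far apart. The number of positive differences was 13 without CTRL replicate 2 at 2 h, and 12 with 3 negative without both 2 h libraries of replicate 2.

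Enzymes and transporters were among the members that rose at 24 h. AKR1B10, an aldo-keto reductase, had 1, 2 and 7 counts in the CTRL libraries at 24 h and stood at 2.51, 1.56 and 6.10 CPM in ODC, with 0.304 to 1.26 CPM at 2 h (difference 4.56, adjusted p = 0.490).

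The exporter ABCC3 rose by 1.73 at 24 h (adjusted p = 0.00895) and the epoxide hydrolase EPHX1 by 1.72 (adjusted p = 0.0218), with differences of 1.62 and 1.27 (adjusted p = 0.372 and 0.597). AKR1B10, ABCC3 and EPHX1 were named after their values were seen. EPHX1 stood at 73.0 to 133 CPM in all 2 h libraries and at 10.2 to 54.2 CPM in all 24 h libraries, so for this gene the ODC level at 24 h lay below both groups at 2 h. HMOX1 and SLC7A11, fast targets of NRF2, were spread widely within the groups. HMOX1 had a difference of 2.77 (standard error 1.6, adjusted p = 0.938) and SLC7A11 one of 0.15 (standard error 0.89, adjusted p = 0.998). Without both 2 h libraries of replicate 2 these were -0.30 and -1.11.

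On the iron and heme list, which shares FTL, FTH1 and BLVRB with the NRF2 targets, 4 of 25 genes rose at 24 h (background 0.908%) and 6 had a positive difference at an unadjusted p under 0.05 (background 3.17%), or 4 without both libraries of replicate 2. Its median difference was 0.15. These 6 were both ferritin chains, BLVRB, the heme transporter gene SLC48A1, the iron exporter gene SLC40A1 and ALAS1, which starts heme synthesis. The last 3 were named after their values were seen, and SLC40A1 and ALAS1 did not pass at 24 h.

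Genes of the integrated stress response had the most members with a negative difference at an unadjusted p under 0.05. This response is switched on by eIF2α kinases and carried by the factor ATF4, which raises amino acid synthesis enzymes, transporters and tRNA synthetases. Of 42 tested, 17 had a negative and 0 a positive difference at an unadjusted p under 0.05 (background 2.77% and 3.17%), the median difference was -0.47, and 4 fell at 24 h (background 0.488%). The median effect was -0.35 at 24 h and 0.12 at 2 h. The number of negative differences was 9 without CTRL replicate 1 at 2 h and 28 without CTRL replicate 2 at 2 h, so it moved with single control libraries, and 25 without both libraries of replicate 2. In that list, CTRL replicate 1 was lowest at 2 h, with a mean log2 level 0.45 under the mean of the time (-0.45), and the other 2 h libraries lay between -0.04 and 0.20. At 24 h the mean log2 level of the list deviated by 0.20, 0.24 and 0.015 in CTRL and by -0.31, -0.27 and 0.12 in ODC. The groups thus overlapped at 24 h, with ODC replicate 3 above CTRL replicate 3.

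PSAT1, an enzyme of serine synthesis, fell by 0.93 on the log2 scale at 24 h (adjusted p = 0.0209). It stood at 363, 357 and 253 CPM in CTRL and 179, 181 and 150.3 CPM in ODC, and at 131 to 177 CPM in the 2 h libraries. Its CTRL level at 24 h was thus above every 2 h library and its ODC level near them. The glycyl-tRNA synthetase gene GARS fell by 0.76 (adjusted p = 0.0247), from 784, 769 and 628 CPM to 395, 442 and 447 CPM, against 286 to 428 CPM at 2 h. The differences were -0.98 for PSAT1 and -0.89 for GARS (adjusted p = 0.490 for both). ATF4 itself stood at 353, 358 and 278 CPM in CTRL and 199.8, 185 and 219 CPM in ODC at 24 h, and at 214 and 344 CPM in CTRL and 295, 385 and 331 CPM in ODC at 2 h (difference -0.98, adjusted p = 0.503).

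CHAC1, which breaks down glutathione, had the largest negative difference of the list, -2.22 (standard error 0.91, adjusted p = 0.764). It stood at 29.9, 30.5 and 19.3 CPM in CTRL and 7.62, 7.70 and 14.98 CPM in ODC at 24 h. At 2 h it stood at 3.35 and 34.1 CPM in CTRL and 20.1, 44.4 and 35.6 CPM in ODC, where CTRL replicate 1 alone was low. Its difference ran from -4.71 to -1.36 with each library left out. CHAC1 holds the C/EBP-ATF response element TGATGNAA, to which ATF4 dimers bind, on the opposite strand 202 to 209 bases before its start at position 40953471. It is shown in capitals on the plus strand of hg38 at chr15:40953232-40953299, because members of this pathway leaned to a negative difference.

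CHAC1: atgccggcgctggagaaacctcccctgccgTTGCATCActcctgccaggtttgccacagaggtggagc

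Searched on both strands of the same 1000 bases, this element was found in 43.3% of 30 integrated stress response genes and in 9.58% of all 9825 tested genes with a RefSeq start. The list was made of known ATF4 targets, so its share is not independent of that factor.

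Targets of p53, the factor that halts the cycle or starts apoptosis after damage, had positive differences. Of 32 tested, 5 rose at 24 h (background 0.908%) and 11 had a positive and 0 a negative difference at an unadjusted p under 0.05 (background 3.17% and 2.77%). The counts were 10 and 0 without both libraries of replicate 2 at 2 h. The medians were 0.53 for the difference, 0.43 at 24 h and -0.045 at 2 h. CDKN1A, the cell cycle inhibitor p21, stood at 88.3, 90.7 and 108 CPM in CTRL and 206, 129.9 and 221 CPM in ODC at 24 h, and at 100.3 and 94.3 CPM in CTRL and 115, 96.9 and 95.3 CPM in ODC at 2 h. It rose by 0.95 at 24 h (adjusted p = 0.0247) and the difference was 0.88 (adjusted p = 0.584). SPATA18, a mitochondrial quality gene, rose by 1.17 (adjusted p = 0.0198), the oxidoreductase gene TP53I3 by 0.88 (adjusted p = 0.0167), the mitochondrial reductase gene FDXR by 0.96 (adjusted p = 0.0209) and the apoptosis inducer BBC3 by 0.77 (adjusted p = 0.027). Their 2 h effects lay between -0.16 and 0.13, and ODC replicate 2 was the lowest ODC library at 24 h in all 5. Without that library, 18 members had a positive difference at an unadjusted p under 0.05, and 17 with the libraries paired.

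Replication genes and histone genes leaned apart. Of 47 genes of DNA replication and S phase, 9 had a negative and 0 a positive difference at an unadjusted p under 0.05 (background 2.77% and 3.17%), with 45 of 47 negative and a median of -0.26. None was called at 24 h, where the unadjusted p was under 0.05 for 15, all lower (background 8.10% higher and 6.98% lower). The sizes were small. FEN1, a flap endonuclease, stood at 195, 200.1 and 180.2 CPM in CTRL and 149.6, 166 and 144 CPM in ODC at 24 h, and at 157 to 183 CPM at 2 h (difference -0.43, adjusted p = 0.586). The helicase subunit MCM7 and the nucleotide reductase subunit RRM2 had differences of -0.52 and -0.49 (adjusted p = 0.597 for both). The number of negative differences was 5 without ODC replicate 2 at 2 h, 14 without CTRL replicate 2 at 2 h, 11 without both libraries of replicate 2, and 16 with adjacent 24 h libraries paired.

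Of 16 replication-type histone genes that could be tested out of 52 listed, 7 had a positive and 0 a negative difference at an unadjusted p under 0.05 (background 3.17% and 2.77%), and the median difference was 1.06. Histone transcripts of this type mostly lack a poly(A) tail, and poly(A) selection was used, so what was measured is the polyadenylated part of them. HIST1H2AC rose by 1.497 at 24 h (adjusted p = 0.0234), from 3.08, 1.69 and 3.42 CPM to 9.24, 7.11 and 6.78 CPM, against 4.98 to 8.01 CPM at 2 h (difference 1.24, adjusted p = 0.597). The number of positive differences was 3 without CTRL replicate 1 at 2 h, 11 without CTRL replicate 2 at 2 h, 9 without both libraries of replicate 2 and 4 without ODC replicate 3 at 24 h. The histone list stood highest at 2 h in CTRL replicate 1, with a mean log2 level 0.58 above the mean of the time. Members of 1 family with near-identical copies can share reads, so single histone genes are uncertain. Of 57 DNA repair genes, 7 had a negative and 0 a positive difference (background 2.77% and 3.17%), with a median of -0.11, and the number was 1 without CTRL replicate 1 at 2 h, 3 without ODC replicate 2 at 2 h, 6 without both libraries of replicate 2, and 4 without CTRL replicate 1 or CTRL replicate 2 at 24 h. The helicase gene BLM had the smallest p among them (difference -0.54, adjusted p = 0.523).

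Of 25 ERK output genes, 1 had a negative and 0 a positive difference at an unadjusted p under 0.05, near the background of 2.77% and 3.17%, with a median of 0.048. Leaving out both libraries of replicate 2 at 2 h was no test for this list, since that pair was chosen by the levels of such genes. The gene reported as negative was ETV1, an ETS factor induced by ERK, which stood at 12.9, 10.96 and 10.6 CPM in CTRL and 2.46, 1.88 and 3.90 CPM in ODC at 24 h. It stood at 22.9 and 13.7 CPM in CTRL and 12.9, 11.3 and 16.5 CPM in ODC at 2 h. ETV1 fell by 2.06 on the log2 scale at 24 h (adjusted p = 0.00895) against -0.43 at 2 h, a difference of -1.62 (standard error 0.39, adjusted p = 0.490). Its relative ETV4 had a difference of -1.17 (adjusted p = 0.894).

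EGR1 had the difference of the largest size among the immediate early genes, -3.70 (standard error 1.9, adjusted p = 0.894), but it ran from -7.09 to -0.27 with each library left out and was 0.66 without both 2 h libraries of replicate 2. That pair was chosen by the levels of such genes, so the value of 0.66 is a description only. DUSP6 had a difference of -0.60 (standard error 1.2), which was 0.92 without ODC replicate 2 at 2 h. Of 35 immediate early genes, 4 had a positive and 1 a negative difference at an unadjusted p under 0.05 (background 3.17% and 2.77%). Of 35 heat shock and folding genes, 1 had a positive difference, although HSPA1A ranged from 33.1 to 148 CPM among the 2 h libraries. It stood at 41.0 and 125 CPM in CTRL and at 148, 33.1 and 37.0 CPM in ODC.

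The list of BMP and TGF-beta output also had members that rose at 24 h. BMP ligands act through SMAD proteins, which raise the ID genes, SMAD6 and ATOH8. Of 31 tested, 6 rose at 24 h (background 0.908%). For the difference, 7 were positive and 0 negative at an unadjusted p under 0.05 (background 3.17% and 2.77%), and 0 passed the adjusted test. Of all 31 differences 17 were positive and 14 negative, with a median of 0.18. Without both libraries of replicate 2 at 2 h, 6 were positive at that p. ID1 stood at 47.0, 27.3 and 48.5 CPM in CTRL and 115, 93.3 and 119.8 CPM in ODC at 24 h. At 2 h it stood at 129 and 143 CPM in CTRL and 184, 169.8 and 208 CPM in ODC, so the groups did not overlap at either time. The log2 effect was 1.42 at 24 h (adjusted p = 0.00895) and 0.46 at 2 h (95% interval 0.01 to 0.92, adjusted p = 1), and the difference was 0.95 (adjusted p = 0.584).

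ATOH8 stood at 0.195, 0.265 and 0.449 CPM in CTRL and 3.15, 1.72 and 2.68 CPM in ODC at 24 h, and at 3.23 and 7.51 CPM in CTRL and 5.72, 9.98 and 8.25 CPM in ODC at 2 h. It rose by 3.06 at 24 h (adjusted p = 0.0182), with a difference of 2.49 (adjusted p = 0.493). SMAD6 rose by 1.98 (adjusted p = 0.0167) and ID4 by 2.36 (adjusted p = 0.0416) at 24 h, both named after their values were seen. In ATOH8, SMAD6, ID4 and ID1 the ODC libraries at 24 h stayed below every CTRL library at 2 h, and their CTRL libraries at 24 h were lower than those at 2 h. Culture time, month and table cannot be told apart here. TGFB2, a TGF-beta ligand, rose by 0.86 (adjusted p = 0.032), with 2 h libraries of both groups between 70.1 and 99.5 CPM and a difference of 0.93 (adjusted p = 0.523).

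Of 42 NF-kB targets, 4 rose at 24 h (background 0.908%) and 6 had a positive and 1 a negative difference at an unadjusted p under 0.05 (background 3.17% and 2.77%), with a median of 0.41. The number of positive differences was 12 without ODC replicate 2 at 2 h, 10 without CTRL replicate 3 at 24 h, and 15 without both libraries of replicate 2. CSF1, a macrophage growth factor, stood at 127, 76.0 and 163 CPM in CTRL and 285, 274 and 366 CPM in ODC at 24 h, and at 260.3 to 357 CPM at 2 h. It rose by 1.34 (adjusted p = 0.0218) with a difference of 1.33 (adjusted p = 0.503). The chemokine genes CXCL16 and CCL20 were at or under the floor of 3 counts in every CTRL library at 24 h. They were at least 6.84-fold and at least 5.01-fold higher in ODC at 24 h (adjusted p = 0.0271 and 0.0451). At 2 h CXCL16 stood at 0.708 to 1.39 CPM in both groups and CCL20 at 0.102 to 0.266 CPM.

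Lipid genes were split. Of 34 genes of sterol and fatty acid synthesis, 2 fell at 24 h (background 0.488%) and 3 had a negative and 0 a positive difference at an unadjusted p under 0.05 (background 2.77% and 3.17%). SCD, the stearoyl-CoA desaturase, fell by 1.28 on the log2 scale (adjusted p = 0.0381), from 766, 1124 and 618 CPM to 249.7, 500.2 and 284 CPM, against 338 to 450.2 CPM at 2 h (difference -1.22, adjusted p = 0.597). STARD4, a sterol carrier, fell by 1.01 (adjusted p = 0.0291). On the sphingolipid list of 32 genes, 4 had a positive and 1 a negative difference at that p, the latter a share near the background of 2.77%. The ceramide synthase gene CERS4 rose by 1.64 (adjusted p = 0.0271) with a difference of 1.88 (adjusted p = 0.490), and the serine palmitoyltransferase gene SPTLC3 fell by 1.15 (adjusted p = 0.0385) with a difference of -1.10 (adjusted p = 0.586). The ceramidase gene ACER2 stood at 1.98 and 1.82 CPM in CTRL and 1.29, 1.32 and 0.849 CPM in ODC at 2 h, and at 1.95, 2.44 and 2.81 CPM in CTRL and 6.64, 3.23 and 5.66 CPM in ODC at 24 h. Its groups were thus apart in opposite directions, with effects of -0.72 at 2 h (unadjusted p = 0.0509) and 1.11 at 24 h (adjusted p = 0.0837), neither of which passed (difference 1.83, adjusted p = 0.490).

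Of the renal epithelial markers, 12 could be tested, and 3 fell and 0 rose at 24 h (background 0.488% and 0.908%). For the difference, 5 were negative and 1 positive at an unadjusted p under 0.05 (background 2.77% and 3.17%), and of all 12 differences 7 were negative and 5 positive. Without both libraries of replicate 2 at 2 h, 3 were negative and 1 positive at that p. The positive one was EPCAM, which was highest in CTRL replicate 1 at 2 h. PAX8 stood at 444, 664 and 505 CPM in CTRL and 567, 888 and 554 CPM in ODC at 24 h (log2 effect 0.32, adjusted p = 0.483). The cadherin gene CDH16 stood at 3.03, 2.44 and 0.729 CPM in CTRL and 6.98, 10.01 and 0.879 CPM in ODC (log2 effect 1.51, adjusted p = 0.302). EPCAM, PAX8 and CDH16 were named after their values were seen. Keratin 18 (KRT18) fell by 0.72 on the log2 scale (adjusted p = 0.0265), from 682, 519.7 and 498 CPM to 308, 316 and 405 CPM, and lay at 517 to 573 CPM in the 2 h libraries. Keratin 7 (KRT7) fell by 0.73 (adjusted p = 0.0496) and LHX1, a kidney development factor, by 1.47 (adjusted p = 0.0271). Their differences were -0.70, -0.93 and -1.46 (adjusted p = 0.584, 0.503 and 0.584).

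Proteasome subunits (36 tested) and ribosome biogenesis genes (39 tested) had 0 members with an unadjusted p under 0.05 for the difference in either direction, by edgeR's quasi-likelihood test, and medians of 0.035 and -0.0055. Of 46 genes of mitosis, 1 had a negative and 0 a positive difference at that p (background 2.77% and 3.17%). Of all 46 differences, though, 40 were negative and 6 positive, with a median of -0.15. At 24 h 9 of them had an unadjusted p under 0.05, all lower (background 8.10% higher and 6.98% lower). Of 42 genes of hypoxia and glycolysis, 2 had a positive and 0 a negative difference at that p (background 3.17% and 2.77%). The number of positive ones was 0 to 4 with each library left out. On the hypoxia and glycolysis list NDRG1 rose by 1.42 and PFKFB3, a regulator of glycolysis, by 0.95 at 24 h (adjusted p = 0.025 and 0.0431), with differences of 0.95 and 0.76 (adjusted p = 0.759 and 0.749). The chemotaxis and axon guidance list, which shares members such as CXCL16 with the NF-kB targets, had 5 positive and 3 negative differences among 31 genes at an unadjusted p under 0.05 (background 3.17% and 2.77%). These were 2 and 2 without both libraries of replicate 2. There the receptor gene ROBO1 rose by 0.55 at 24 h (adjusted p = 0.0381), and SEMA3A had a difference of -1.19 (adjusted p = 0.584). LYPD1, a membrane protein gene, fell by 2.64 at 24 h (adjusted p = 0.00754) from 8.94, 10.4 and 10.8 CPM to 1.48, 2.26 and 1.12 CPM, but was low in both groups at 2 h, at 0.354 to 1.33 CPM. Its difference was -1.91 (adjusted p = 0.584).

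The plot of the list members shows the size of these leanings against the spread within each list.

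**Figure D4:**
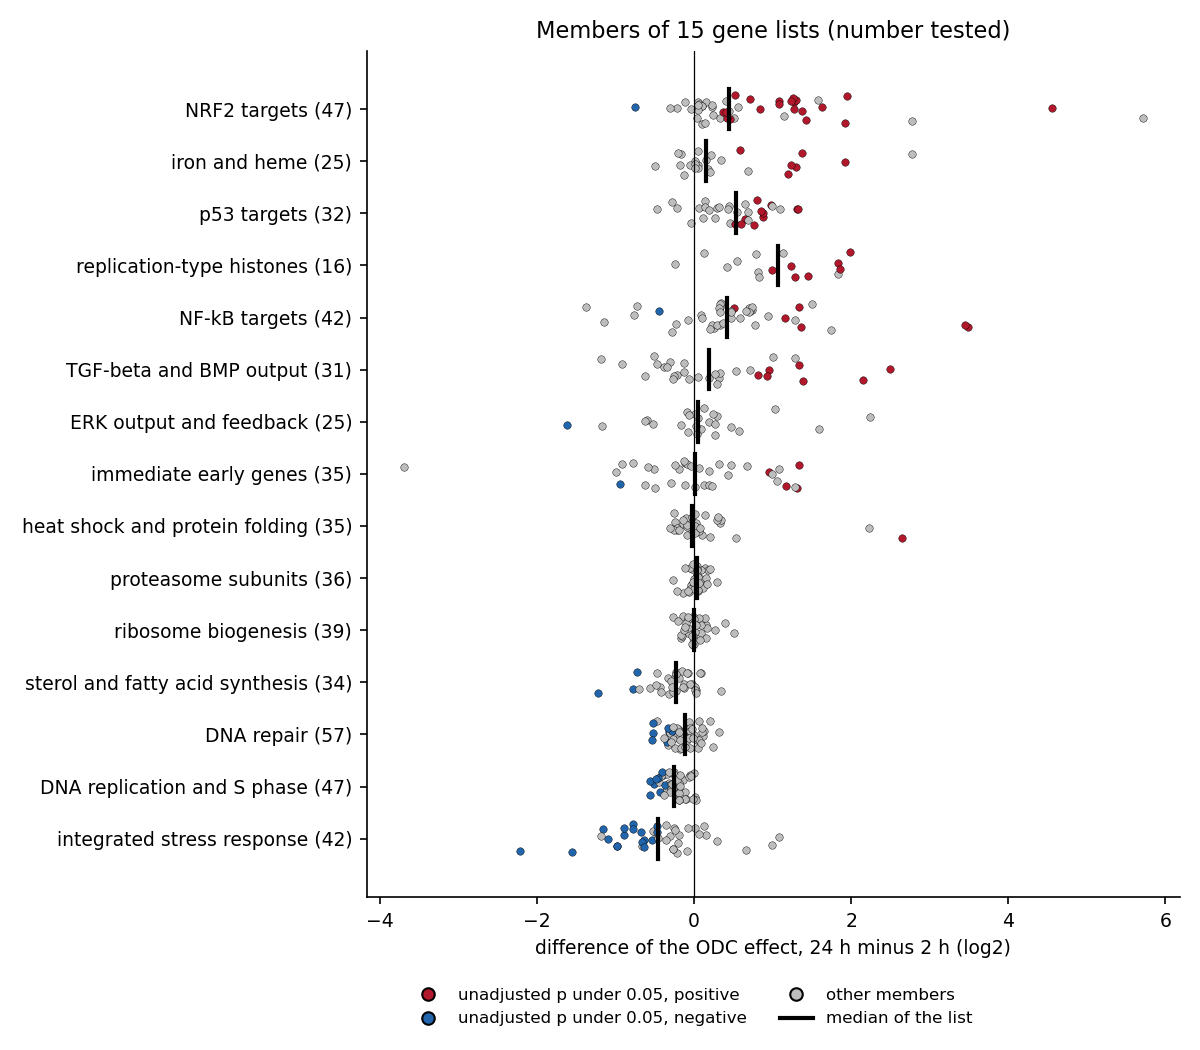
Difference of the ODC effect, 24 h minus 2 h (log2), of each tested member of 15 gene lists, 1 point for each gene, with members of unadjusted p under 0.05 in red (positive) or blue (negative) and a bar at the median of the list. NRF2 targets (median 0.44), p53 targets (0.53) and histones (1.06) lie to the right of 0, and the integrated stress response (-0.47) and replication genes (-0.26) to the left.

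The plot of calls by setting gives the 3 counts side by side. The number called for the difference stayed small with any library left out, while that at 24 h moved most with CTRL replicate 1 and ODC replicate 3 of that time.

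**Figure D5:**
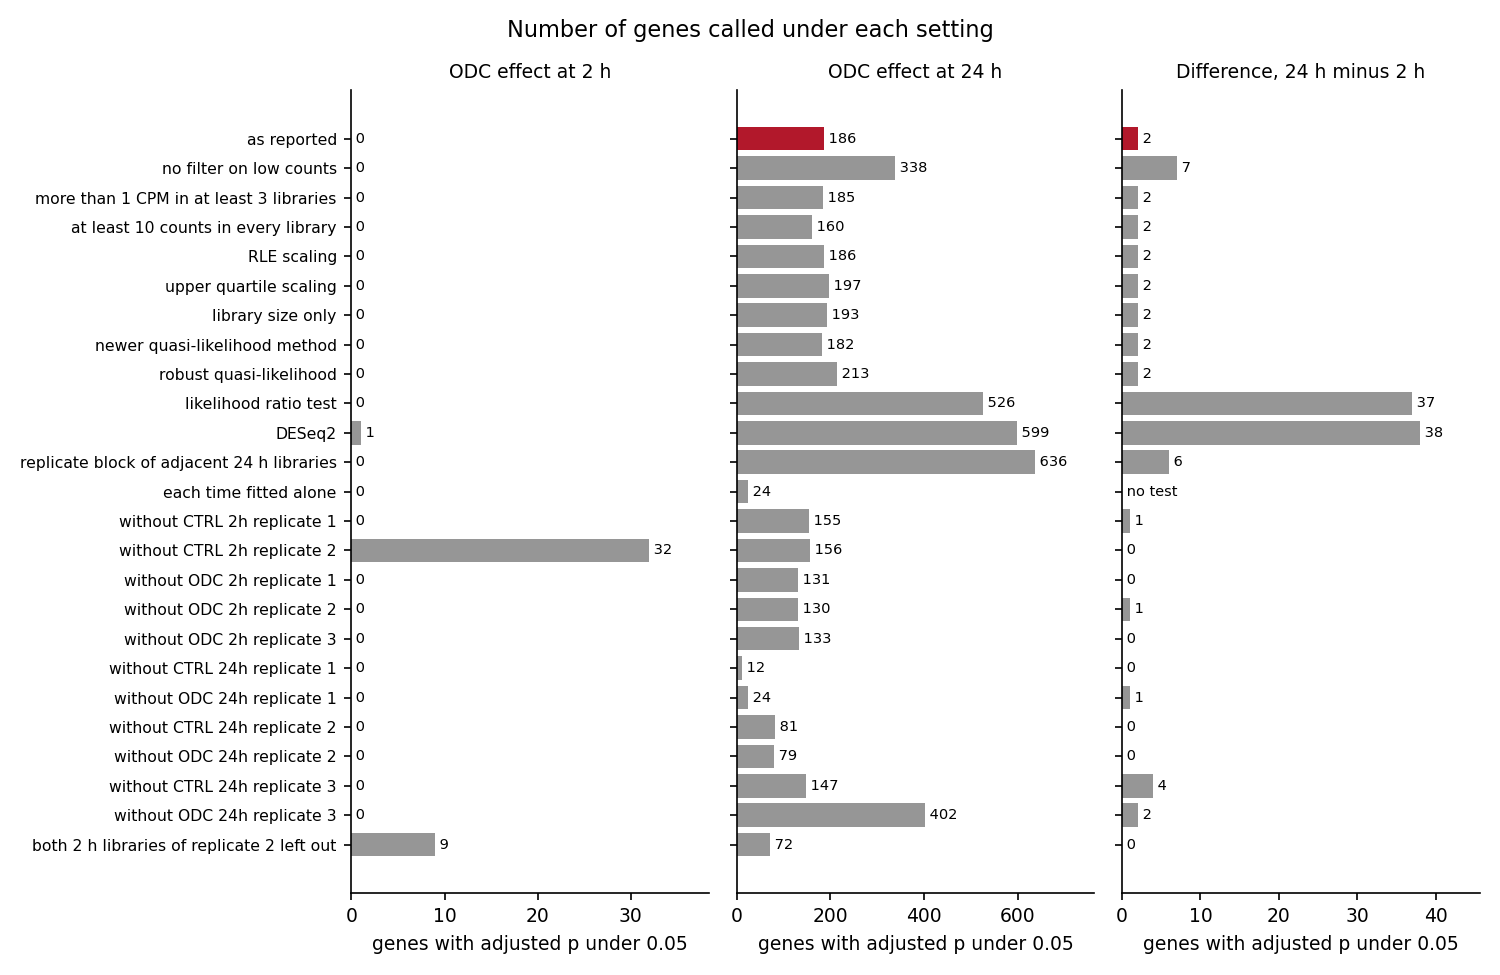
Number of genes with an adjusted p under 0.05 for the ODC effect at 2 h, that at 24 h and their difference, on separate linear axes, under the reported setting (red) and each alternative (grey). The difference is called in 2 genes as reported and in 0 to 4 with 1 library left out, and the 24 h effect in 12 to 402.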

How the data were processed

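Poly(A)-selected, stranded single-end RNA-seq was made from 11 libraries of Caki-1-SR clone 1. The authors deposited raw counts per gene symbol in 2 tables, 1 for each treatment time, made with STAR and HTSeq on hg38. The submitters' notes give STAR 2.7.0f, HTSeq 0.9.1 and edgeR 3.26.8, and the study's methods name other releases of STAR and edgeR. Read alignment was not repeated. Groups came from the labels, and replicate numbers within a group follow the order of deposit.

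The 26485 symbols shared by both tables were joined. Genes were kept by edgeR's filter (minimum count 10, minimum total 15), scaled by TMM, and fitted with edgeR 4.0.16 in R 4.3.3 as 4 groups over all 11 libraries. The quasi-likelihood test was two-sided, with Benjamini-Hochberg adjustment over all 13333 genes in each contrast. The standard error is the log2 value divided by the root of its F statistic. Libraries held 17785229 to 31118349 counts, and the median 95% half-width of the difference was 0.50. The scripts were tested on simulated data. Alternatives were other filters and scalings, other edgeR tests, DESeq2 1.42.0, each time fitted alone, each library left out, and pairs of adjacent 24 h libraries. The deviations of paired libraries correlated at 0.170, 0.527 and 0.385. The labels give no pairing, which comes from the library numbers in the titles. Calls under this pairing were 6 for the difference (5 positive and 1 negative), 636 at 24 h and 0 at 2 h.

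Named genes were those called for the difference, the 3 members of each of 26 gene lists and 4 marker lists with the smallest p of the difference, and 30 response genes given by name. Others are said to be named after their values were seen. The genes, lists and tests were chosen with earlier results of these data known. Gene coordinates are from the GENCODE annotation of hg38, and promoter starts and sequence from RefSeq and hg38. All 35116 RefSeq promoter entries given equalled the genome at their positions. Of the symbols, 23161 matched GENCODE gene names directly and 1414 were matched as older symbols through RefSeq synonyms. The values of 1 gene are not reported here.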

Additional observations from a re-analysis of the deposited data

Results flagged for a closer look

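The ODC effect differed between the treatment times, by the test of the difference itself, in 2 genes. For FTL the difference was 1.92 on the log2 scale, from group means of 293 ± 33.5 CPM in CTRL and 1196 ± 142 CPM in ODC at 24 h (SD, n = 3 each), against 475 ± 128 CPM (SD, n = 2) and 514 ± 46.1 CPM (SD, n = 3) at 2 h. For NQO1 it was 1.42, from 203 ± 19.7 and 583 ± 15.9 CPM at 24 h, against 444 ± 41.4 and 476 ± 66.6 CPM at 2 h. In both genes all 3 ODC libraries lay above all 3 CTRL libraries at 24 h, and the ranges overlapped at 2 h. The CTRL means at 24 h were below those at 2 h in both, and treatment time cannot be told apart from the table.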

How the results depend on the processing

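For the difference, 2 genes were called as reported, 7 with no filter on low counts, 37 by the likelihood ratio test, 38 by DESeq2, 6 with the replicate block of adjacent 24 h libraries, 0 without both 2 h libraries of replicate 2 (chosen after seeing the data), and 0 to 4 with each library left out. The difference was not tested where each time was fitted alone, and was 1.93 for FTL and 1.44 for NQO1 there. With at least 2-fold these were 2, 7, 34, 28, 6, 0 and 0 to 4. Of the genes called, 7, 28, 27, 5, 0 and 0 to 4 were late and higher under the same settings, and 8 (likelihood ratio test), 11 (DESeq2) and 1 (block) late and lower. The likelihood ratio test left 1 gene in no class. At 24 h the 186 calls became 338, 526, 599, 636 and 72 under these settings, 24 with each time fitted alone, and 12 to 402 with each library left out. The 95 with at least 2-fold became 160, 219, 180, 184, 46, 21 and 11 to 205. At 2 h DESeq2 called 1 gene, leaving out both libraries of replicate 2 gave 9, and leaving out each library gave 0 to 32. Without both libraries of replicate 2 the sign turned for the difference of HMOX1 (-0.30), EGR1 (0.66), DUSP6 (1.81), HSPA1B (-1.60, as reported 0.34) and SLC7A11 (-1.11). That pair was chosen by the levels of such genes, and CTRL replicate 1 was then the only CTRL library at 2 h. These turns are descriptions only. With each library left out the difference ran from -3.40 to 0.92 for DUSP6, from -1.23 to 1.54 for HSPA1B, from -1.19 to 0.76 for SLC7A11 and from -0.51 to 2.65 for RMRP. The 2 h effect ran from -0.13 to 0.43 for FTL and from -1.25 to 0.078 for LYPD1. The cause was not tested, beyond the fewer libraries where some were left out. Replicates differed by more than counting error, so depth alone did not set the precision.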
